A study of Mus musculus with 2 samples.

Results

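Pseudogenes and other noncoding genes were compared between a teratoma grown from wild-type mouse ESCs and a teratoma grown from ESCs with a point mutation in Sox2. The genes were chosen by 2 criteria, a biotype in the deposited table other than protein_coding or lncRNA and a TPM (transcripts per 1000000, a level that accounts for transcript length) that reached 10 in either library. Of 45777 genes in the table, 11258 had such a biotype, and 649 of those also met the TPM criterion. The 649 genes were 447 pseudogenes, 61 transcribed pseudogenes, 98 snoRNAs, 17 miRNAs, 11 tRNAs, 5 genes with no biotype, 3 genes of the class misc_RNA, 2 rRNAs, 2 scRNAs, 2 snRNAs and 1 antisense RNA. Because the same TPM values chose these genes and give their levels, every count and median over them is a description.

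Each group had 1 RNA-seq library. The wild-type line was E14, a mouse ESC line, and its derivative E14-Sox2TA/WT was edited with CRISPR-Cas9 so that 1 allele of Sox2 carried T258A, an alanine in place of a threonine, after which clones were selected. Cells of either line were injected under the skin of athymic BALB/c-nu mice with Matrigel, 3 mice in each group, and teratomas were taken on day 14. The sources used here do not state how many teratomas went into a library, and the sample labels give teratoma as the tissue while their protocol text speaks of an ESC line. A nude host has few T cells but keeps B cells, macrophages, vessels and stroma, so mouse host RNA cannot be told apart from mouse tumour RNA. With 1 library per group there is no replicate error, no test between groups was possible, and each difference is one between these libraries.

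Gene counts summed to 50529171 reads for E14 and 49030281 reads for E14-Sox2TA/WT. Log2 ratios are of the E14-Sox2TA/WT over the E14 level after adding 1 to both. Over the 11578 genes that reached 10 TPM in either library their median was -0.18, against 0.01 when FPKM was used, so a value near -0.18 is the middle of the table. Sox2 itself had 246 and 130 TPM, and its alleles are not separated in the table. Markers of other cell types differed between the libraries. Pluripotent cells were represented by 12 markers, which were all more than 2-fold higher in the E14-Sox2TA/WT library, with summed TPM of 92.4 and 2047, and all 8 neuronal markers were more than 2-fold lower, with summed TPM of 3277 and 488. The 8 macrophage markers summed to 981 and 1650 TPM, whereas the 6 T cell markers summed to 7.93 and 12.5 TPM and the 8 B cell markers to 11.0 and 13.8 TPM, with none of these 14 genes at 10 TPM. In bulk RNA, fewer cells of a type and less RNA per cell cannot be told apart.

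A processed pseudogene is a copy of a messenger RNA that was reverse transcribed and inserted elsewhere in the genome, and genes with abundant messenger RNA in the germ line, such as those of ribosomal proteins, have many such copies. snoRNAs are short RNAs that guide chemical modification of other RNAs. Box C/D snoRNAs guide 2′-O-methylation with fibrillarin, box H/ACA snoRNAs guide pseudouridylation with dyskerin, and most mammalian snoRNAs are cut from introns of a host gene. The libraries were made from poly(A) RNA, a selection that mature snoRNAs, tRNAs, miRNAs and most spliceosomal RNAs are not expected to pass, so the level of such a gene here is the level of reads placed on its interval and not of the mature RNA.

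Mature miRNA sequences show that short stretches of some of these intervals also stand in transcripts of other genes. The 5 sequences come from RefSeq on GRCm38.p6, with the seed (bases 2 to 8) in capitals. They are miR-703 of Mir703 (chr5:98475616-98475636), miR-692, which Mir692-1, Mir692-2 and Mir692-3 share, miR-5121 of Mir5121 (chr7:45126925-45126945), miR-3064-5p of Mir3064 (chr11:106782736-106782757) and miR-3061-5p of Mir3061 (chr11:52126759-52126780).
mmu-miR-703: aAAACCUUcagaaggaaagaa
mmu-miR-692: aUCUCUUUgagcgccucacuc
mmu-miR-5121: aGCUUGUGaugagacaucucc
mmu-miR-3064-5p: uCUGGCUGuuguggugugcaaa
mmu-miR-3061-5p: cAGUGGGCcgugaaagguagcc
Every base of miR-692 was found in transcripts of 15 other genes, among them the ferritin gene Ftl1 and its copies Ftl1-ps1, Ftl1-ps2 and Ftl2-ps, and every base of miR-703 was found in Eef1a1, the translation elongation factor. The hairpin is the longer stretch that holds the mature sequence. Those of Mir703 and Mir692-1 were found whole in no other transcript, and that of Mir692-2 in Ftl1-ps1 and Mir692-3. A shared mature sequence alone thus does not make every read on a locus ambiguous. Of 22 miRNA loci, 19 had a mature sequence in the table, with 29 mature sequences and 27 different seeds, and the only seed in more than 1 locus was that of miR-692.

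The snoRNAs are shown by the pair in which a mature miRNA lies inside a snoRNA and by the 2 most abundant box C/D loci of Gas5, from GENCODE transcripts of GRCm38. Capitals mark the C box TGATGA in the first 15 bases and the D box CTGA in the last 12 bases. By RefSeq position Snord33 lies at chr7:45126864-45126945, and GENCODE places it on the minus strand within Rpl13a. Its GENCODE transcript of 84 bases holds all of miR-5121, and its RefSeq interval and that of Mir5121 overlap by 28 bases. LOC115487644, named for SNORD44, lies at chr1:161036682-161036741 and LOC115487677, named for SNORD78, at chr1:161036984-161037049, both on the plus strand within Gas5. Each overlaps an exon of some annotated Gas5 transcript, and it may be intronic in others.
Snord33: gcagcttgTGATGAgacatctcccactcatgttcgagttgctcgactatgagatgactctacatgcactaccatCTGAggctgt
LOC115487644: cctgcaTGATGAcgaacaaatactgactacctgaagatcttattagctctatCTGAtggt
LOC115487677: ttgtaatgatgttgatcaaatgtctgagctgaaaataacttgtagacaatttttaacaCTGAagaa
Searched on the transcribed strand, TGATGA stood in that window in 40 of 67 box C/D loci and in 20.6% of all 1507 snoRNA transcripts of the annotation, and CTGA in 59 of 67, against 30.1%. The ACA triplet stood in the last 8 bases in 27 of 29 box H/ACA loci, against 46.9%. The 1507 transcripts mix all classes of snoRNA, so a higher share in loci labelled by their box follows from the label and is no test of enrichment.

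How far a pseudogene can be told apart from its parent is shown by 60-base coding stretches with the differing bases in capitals, from GENCODE transcripts of GRCm38. Dppa5b (chr9:78245487-78246600) and its parent Dppa5a differ at 2 bases of the first 60, Zfp42-ps1 (chr15:93678603-93680033) and Zfp42 at 1, Gng5-ps (chr16:22294988-22295478) and Gng5 at 1, and Pisd-ps1 (chr11:3124002-3131945) and Pisd at 8 in the stretch shown.
Dppa5b: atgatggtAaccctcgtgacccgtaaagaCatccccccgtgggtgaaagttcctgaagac
Dppa5a: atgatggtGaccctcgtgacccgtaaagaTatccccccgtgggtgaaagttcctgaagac
Zfp42-ps1: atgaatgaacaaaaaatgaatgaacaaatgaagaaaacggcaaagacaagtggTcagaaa
Zfp42: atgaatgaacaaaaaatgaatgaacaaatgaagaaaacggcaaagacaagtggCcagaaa
Gng5-ps: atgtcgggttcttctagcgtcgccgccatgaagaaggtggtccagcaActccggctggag
Gng5: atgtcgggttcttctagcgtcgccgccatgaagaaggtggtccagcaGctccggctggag
Pisd-ps1: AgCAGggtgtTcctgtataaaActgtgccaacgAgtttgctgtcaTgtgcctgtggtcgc
Pisd: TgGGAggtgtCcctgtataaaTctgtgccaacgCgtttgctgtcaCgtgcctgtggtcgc
Across 491 pseudogenes with an annotated transcript, the median share of 50-base stretches that also stood in a transcript of another gene was 81.0%. It was 100% in 90 pseudogenes and 0 in 5. How the authors' counting placed reads that fit several copies is not given in the sources used here, so values of pseudogenes with shared stretches are uncertain.

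More of the 649 noncoding genes were higher than lower in the library with the Sox2 mutation. By a TPM ratio above 2, 198 genes (30.5%) were higher and 29 (4.47%) were lower, beside a background over all 11578 genes of 10.8% higher, 18.7% lower and 29.5% in either direction. Their median log2 ratio was 0.50, which is 0.68 above the median of all genes, and the values ran from -5.37 to 4.82. Protein-coding genes at the same TPM had a median of -0.22, with 9.42% higher and 19.3% lower, and lncRNAs a median of -0.08, with 24.4% higher and 33.7% lower. The criterion admits a gene through either library, and 170 genes reached 10 TPM in the E14-Sox2TA/WT library alone, against 39 in the E14 library alone. Among the 440 genes with at least 10 TPM in both, 70 (15.9%) were higher and 13 (2.95%) lower, with a median of 0.35. All 8963 genes of the table with at least 10 TPM in both had 5.34% higher and 12.5% lower, with a median of -0.15. The TPM of the 649 noncoding genes summed to 43759 for E14 and 54779 for E14-Sox2TA/WT, a ratio of 1.25, and these genes took 2.14% and 2.75% of the reads.

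**Figure D1:**
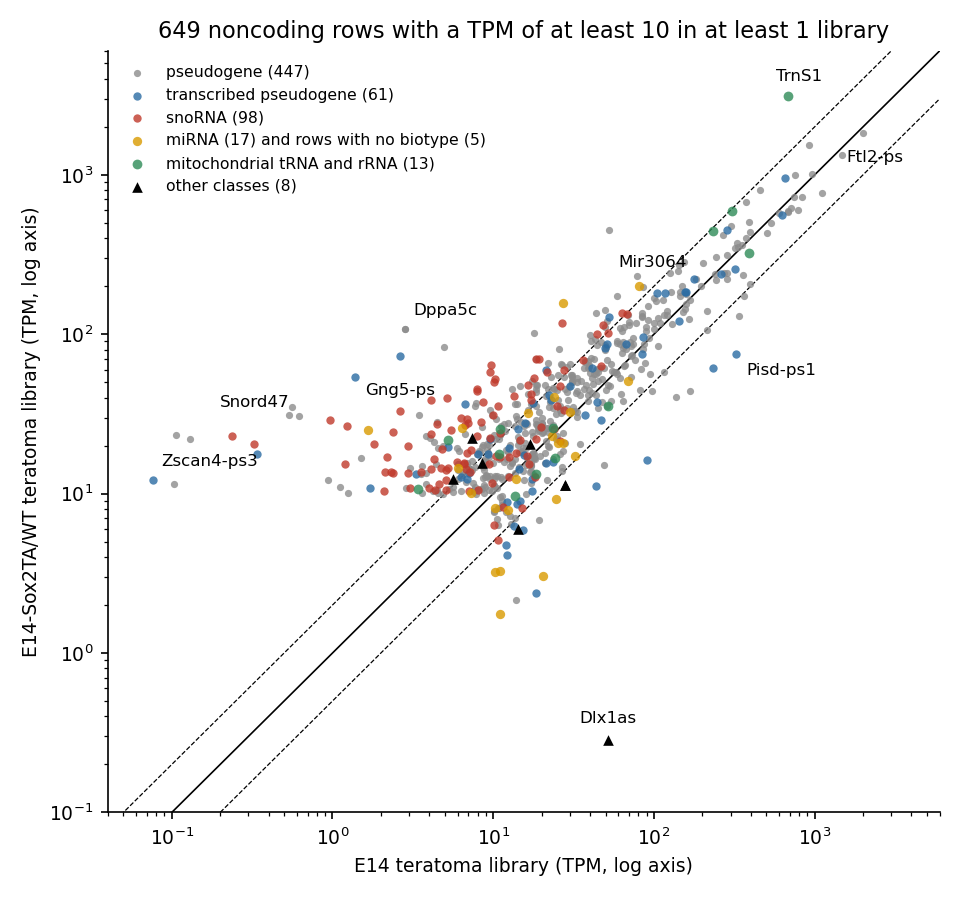
TPM of the 649 noncoding genes in the E14 (x axis) and E14-Sox2TA/WT (y axis) teratoma libraries, both on log axes, 1 point per gene coloured by class. The solid line marks equal TPM and the dashed lines a ratio of 2 either way. Most snoRNAs lie above the upper dashed line, and Dlx1as, at 52.0 and 0.284 TPM, lies farthest below the lower one.

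By class, the snoRNAs stood highest. Of 98 snoRNAs, 69 (70.4%) were more than 2-fold higher and 1 more than 2-fold lower, and their median log2 ratio was 1.30. Pseudogenes had 104 of 447 higher (23.3%) and 10 lower (2.24%), with a median of 0.41, and transcribed pseudogenes 14 of 61 higher and 9 lower, with a median of 0.36. Over the 12 transcribed pseudogenes with under 20% of 50-base stretches shared with other transcripts the median was -0.67, and the cause of this difference was not tested. miRNA loci were split, with 5 of 17 higher and 4 lower and a median of -0.15, which was 0.12 over those with at least 10 TPM in both libraries. Among genes with at least 10 TPM in both libraries, the medians were 0.95 over 37 snoRNAs and 0.32 over 340 pseudogenes. Summed TPM was 35388 and 41007 for pseudogenes (ratio 1.16), 4708 and 5174 for transcribed pseudogenes, 1234 and 3111 for snoRNAs (ratio 2.52), 398 and 649 for miRNAs, and 1238 and 3628 for the 11 tRNAs, all mitochondrial.

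**Figure D2:**
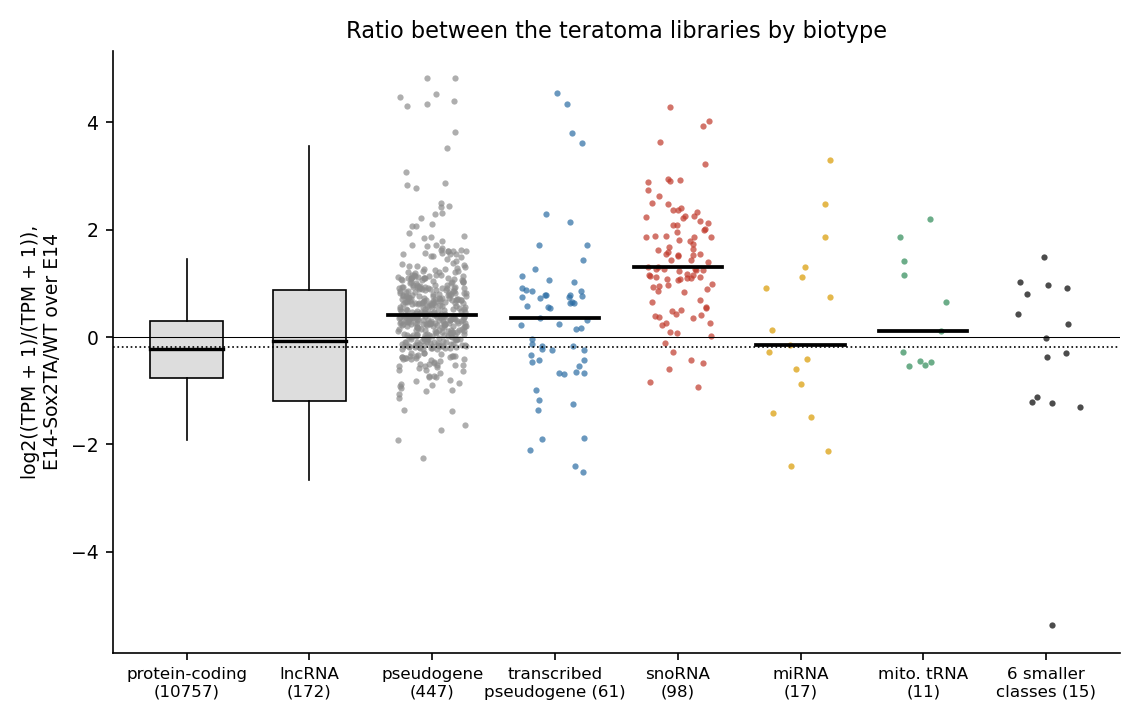
Log2 ratio of TPM, with 1 added to each value, between the E14-Sox2TA/WT and E14 libraries (y axis) by class (x axis, number of genes in parentheses). Grey boxes give the quartiles, median and 5th to 95th percentiles of protein-coding genes and lncRNAs that reached 10 TPM in either library, points are single noncoding genes, thick bars are medians, and the dotted line at -0.18 is the median of all genes. The snoRNA median of 1.30 stands above every other class median drawn.

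Counting error was small for pseudogenes, which had a median of 1487 reads over both libraries, and large for snoRNAs, with a median of 76.5. The interval printed beside a ratio is its 95% range by the Clopper-Pearson method. It was computed from the 2 read counts, scaled to the library totals, and then multiplied by the TPM ratio over the read ratio. It covers counting error only, and reads from PCR without molecular identifiers are not independent molecules. The interval lay wholly above a ratio of 1 in 433 of the 649 genes and wholly below it in 121, and it held 1 in 95, among them 23 of 98 snoRNAs and 4 of 17 miRNAs. It lay wholly above 2-fold higher in 121 genes and wholly beyond 2-fold lower in 19. Just inside the TPM criterion stood Rps12-ps15 (4.88 and 10.01 TPM), Gm4204 (7.86 and 10.01) and Gm12335 (3.61 and 10.08), and just outside it Rps12-ps14 (4.95 and 9.996), LOC108168966 (9.95 and 8.23) and Gm9616 (9.94 and 9.56).

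Shorter protein-coding transcripts had higher ratios, and pseudogenes followed no single order by length. Protein-coding genes with transcripts of 150 to 500 bases had a median log2 ratio of 0.47 (27 genes) and those of at least 3000 bases -0.36 (6083 genes). Between these, the medians were 0.21 at 500 to 750 bases (168 genes), 0.03 at 750 to 1500 (1099 genes) and -0.09 at 1500 to 3000 (3279 genes). Pseudogenes of 150 to 500 bases had a median of 0.63 (184 genes), those of 500 to 750 bases 0.46 (97 genes), those of 750 to 1500 bases 0.26 (167 genes) and those of 1500 to 3000 bases 0.46 (34 genes). The 6 pseudogenes of at least 3000 bases had the lowest median, -1.18. The 94 snoRNAs under 150 bases had a median of 1.30. The part of length in the class medians was not tested. Likewise, 133 of the 649 intervals overlapped an exon of another annotated gene, including 71 of 98 snoRNAs, and whether counting used strand is not given in the sources used here, so their reads cannot be told apart from those of the overlapping gene.

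Pseudogenes of pluripotency genes and of the Zscan4 cluster had some of the highest ratios. The 4 copies of Zscan4c had a summed TPM of 1.13 for E14 and 85.9 for E14-Sox2TA/WT, with a median log2 ratio of 4.07, the highest of the 11 named families of at least 3 members. Dppa5a, which encodes a pluripotency-associated RNA-binding protein, has 2 copies on chromosome 9 that share most bases with it, as shown above. Dppa5b had 42 and 1739 reads, or 2.84 and 107 TPM, 37.7-fold higher (interval 27.8 to 52.5). Dppa5c had 42 and 1744 reads, or 2.84 and 107 TPM, 37.8-fold higher, and every 50-base stretch of either copy also stood in another gene's transcript. Both lay well below the parent Dppa5a, which had 29.1 and 1144 TPM.

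Zfp42-ps1 is a copy of Zfp42, which encodes the ESC marker Rex1. It had 22 and 1186 reads, or 0.622 and 30.8 TPM, 49.6-fold higher (32.6 to 79.4), while Zfp42 had 3.88 and 85.2 TPM, and 37.2% of its 50-base stretches were shared with other transcripts. Zscan4 genes are active in the early cleavage embryo and in a small share of cultured ESCs. The pseudogene Zscan4-ps2 (chr7:11514287-11518688) had 25 and 1707 reads, or 0.560 and 34.7 TPM, 62.0-fold higher (41.9 to 96.1). Zscan4-ps3 had 0.131 and 21.98 TPM, Zscan4a 0.337 and 17.7, and Zscan4-ps1 0.103 and 11.6. All 4 members were below 1 TPM in the E14 library, so they met the TPM criterion only through the E14-Sox2TA/WT library, where they are high. Their protein-coding relative Zscan4c had 0.706 and 28.9 TPM, and 3 of the 4 protein-coding Zscan4 genes in the table passed the same criterion, each higher. The part of the pluripotency markers, which were higher in the same library, in these values was not tested.

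Another 3 pseudogenes that were more than 50-fold higher carry no parent in their symbol and were picked out after their values were seen. Gm8332 and Gm5039 lie on chromosome 12 and share bases with BB287469, a protein-coding gene that had 0 and 289 reads. Gm8332 had 5 and 1173 reads, or 0.107 and 23.4 TPM, 219-fold higher (93.7 to 676). Gm5039 had 4 and 536 reads, or 0.0760 and 12.2 TPM, 160-fold higher (62.1 to 589). LOC115488136, on chromosome 13, had 8 and 499 reads, or 0.533 and 31.0 TPM, 58.2-fold higher (29.3 to 136). With at most 8 reads each in the E14 library, the sizes of these ratios are loosely bounded.

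Some pseudogenes had a far higher ratio than their parent. Gng5-ps, a copy of the G protein gamma subunit gene Gng5, had the highest log2 ratio of the transcribed pseudogenes, 4.54, with 17 and 716 reads, or 1.37 and 54.2 TPM, 39.5-fold higher (24.5 to 68.3). Gng5 had 346 and 582 TPM, 1.68-fold higher. Rbm3-ps and Gm8203 were added to this comparison after their values were seen. Rbm3-ps copies Rbm3, which encodes a cold-inducible RNA-binding protein, and had 4.94 and 83.0 TPM, 16.8-fold higher (14.1 to 20.1), beside 596 and 666 TPM for Rbm3. Gm8203, whose bases match H2afz, the gene of histone variant H2A.Z, had 52.7 and 448 TPM, 8.50-fold higher (7.98 to 9.05), beside 791 and 1411 TPM for H2afz. All 50-base stretches of Gm8203 were also found in other transcripts, and 59.6% of those of Gng5-ps. For none of the 3 was the placement of shared reads tested.

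**Figure D3:**
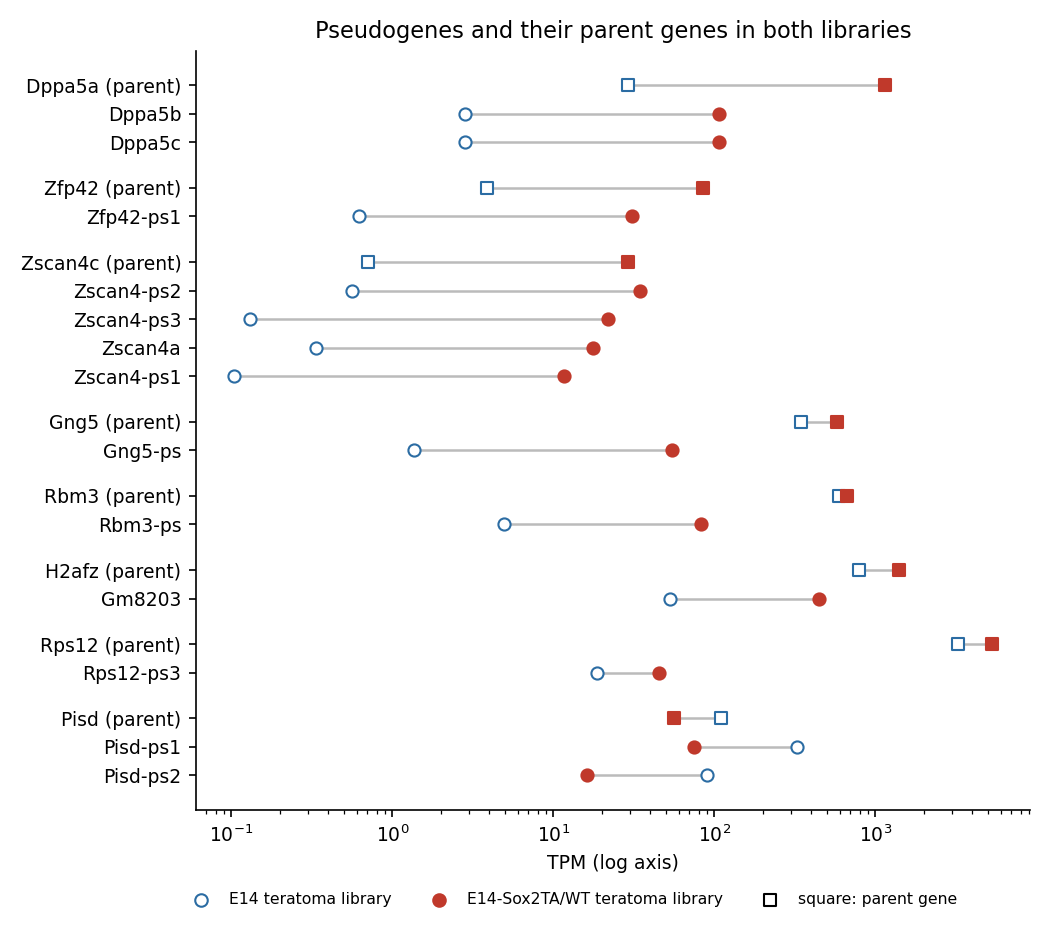
TPM (x axis, log scale) of selected pseudogenes (circles) and their parent genes (squares) in the E14 library (open, blue) and the E14-Sox2TA/WT library (filled, red), with a grey line joining the values of a gene. The copies of Dppa5a, Zfp42 and Zscan4c were higher together with their parents, Gng5-ps, Rbm3-ps and Gm8203 were higher by more than their parents, and both Pisd copies were lower, as was Pisd.

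Ribosomal protein pseudogenes, copies of genes for structural parts of the cytosolic ribosome, made up 74 of the 151 pseudogenes whose symbol or description names a parent. Of these 74, 68 had a ratio above 1, 18 were more than 2-fold higher, none was more than 2-fold lower, and the median log2 ratio was 0.65. The other 77 named pseudogenes had 28 higher and 4 lower, with a median of 0.66. With 10 TPM in both libraries the medians were 0.52 over 60 ribosomal copies, 54 of them above 1, and 0.25 over 47 other copies, 28 of them above 1. The 90 protein-coding genes with a ribosomal protein symbol, which include the binding protein gene Rps19bp1, had a median of 0.20, with 6 higher and none lower. The 2 with the greatest ratio were the retrogene Rpl10l (2.47 and 82.5 TPM) and the paralog Rpl39l (5.36 and 126 TPM). Also among the 6 were Rpl22l1, Rps27l, Rpl37rt and Rps27rt. Assigning parents by sequence gave 167 ribosomal copies, with 29 higher, none lower and a median of 0.42.

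Copies of Rps12, a small-subunit protein, formed the most populous named family, with 9 members that were all more than 2-fold higher, from 2.01-fold to 3.15-fold. The most abundant, Rps12-ps3 (chr19:59322290-59322784), had 18.6 and 45.5 TPM, 2.45-fold higher (2.099 to 2.87), and Rps12 itself had 3269 and 5293 TPM, 1.62-fold higher. The 5 members on chromosome X, between positions 124349708 and 125675246, were at 2.01-fold to 2.11-fold, and every 50-base stretch of each was also found in other transcripts, so these 5 are not independent. A copy with a low E14 level met the TPM criterion only if it was higher in the other library. Rps12-ps15 met it at 4.88 and 10.01 TPM, and Rps12-ps14, at 4.95 and 9.996 TPM, did not. That all 9 were more than 2-fold higher is thus in part set by the criterion. Other ribosomal families lay lower. The top Rps13 copy, Rps13-ps1, had 301 and 480 TPM (1.59-fold), Rpl35a-ps2 had 43.2 and 93.3 TPM (2.16-fold), Rpl17-ps10 had 41.3 and 60.9 TPM (1.47-fold), Rpl30-ps9 had 328 and 376 TPM (1.15-fold) and Rpl10-ps3 had 89.9 and 110 TPM (1.23-fold).

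The sequence-based families also held sets with no member beyond 2-fold. All 19 copies of Rps2 had ratios above 1, none above 2, with a median log2 ratio of 0.26, and the named Rps2-ps10 had 182 and 222 TPM. The 26 copies of Gapdh, the glycolytic enzyme with the most copies here, had a median of -0.00, with values from -0.36 to 0.29 and none beyond 2-fold, and Gapdh had 1704 and 1497 TPM. Over all 32 copies of glycolytic enzymes the summed TPM was 3330 and 3347. The 8 copies of Eef1a1 had a median of -0.09 while Eef1a1 itself had 13476 and 9279 TPM. These broader families were put together after values were seen.

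The family of Sumo2, a small protein attached to other proteins, was higher although its parent was nearly level, at 526 and 573 TPM. LOC102636299 had 52.5 and 128 TPM, 2.44-fold higher (2.28 to 2.61). Smt3h2-ps4 had 9.55 and 33.5 TPM, and Smt3h2-ps3 had 3.79 and 22.8 TPM, which were 3.51-fold and 6.02-fold higher. Copies of Hmgb1, a chromatin architectural protein, ran from Hmgb1-ps3 (15.1 and 18.3 TPM) over Hmgb1-ps2 (49.7 and 79.6) and Hmgb1-ps4 (12.3 and 27.8) to Hmgb1-ps1 (4.28 and 21.2 TPM, 4.96-fold), against 251 and 410 TPM for Hmgb1. By sequence, 20 copies of high mobility group genes had 7 higher, none lower and a median of 0.66, and 18 copies of hnRNP, SR and snRNP protein genes had 8 higher, none lower and a median of 0.67.

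None of the 3 most abundant members of either pseudogene class was beyond 2-fold. Ftl2-ps, a copy of the ferritin light chain gene Ftl1, which stores iron, had 1994 and 1830 TPM, and Gm8730, which matches the ribosomal stalk gene Rplp0, had 1489 and 1324 TPM. Rps3a3 had 919 and 1543 TPM, 1.68-fold higher (1.65 to 1.71), whereas its parent Rps3a1 had 1167 and 1368 TPM. Among transcribed pseudogenes, Gm12191, which matches Rpl30, had 654 and 958 TPM, Gm1821, which matches the ubiquitin gene Ubb, had 629 and 558, and Rps4l, a relative of Rps4x, had 286 and 449. Ferritin was the only named family of 11 with a median below 0, at -0.21. Its members were Ftl2-ps, Ftl1-ps1 (713 and 616 TPM) and Ftl1-ps2, which at 338 and 130 TPM was 2.61-fold lower (2.51 to 2.72), while Ftl1 had 1210 and 1521 TPM.

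Among the 19 pseudogenes of both classes that were more than 2-fold lower, 3 small groups recurred. Pisd encodes phosphatidylserine decarboxylase, a mitochondrial enzyme of phospholipid synthesis, and had 110 and 55.8 TPM. Pisd-ps1 had 22488 and 5778 reads, or 325 and 74.8 TPM, 4.35-fold lower (4.22 to 4.47). Pisd-ps2 had 90.5 and 16.3 TPM, 5.56-fold lower (5.11 to 6.06), and only 15.5% and 22.04% of the 50-base stretches of these 2 were shared. The 4 pseudogenes whose transcripts match parts of Cdh11, a cadherin of mesenchymal cells, were all lower, with summed TPM of 373 and 106. Gm10557 had 169 and 43.8 TPM, Gm21811 had 137 and 40.6, Gm21092 had 48.9 and 15.01 and Gm6483 had 19.3 and 6.87, beside 75.4 and 47.4 TPM for Cdh11. Copies of the alpha tubulin gene Tuba1b numbered 4 and had summed TPM of 860 and 518, with Gm3756 (97.8 and 43.8 TPM) and Gm3226 (363 and 174 TPM) beyond 2-fold, Gm5620 at 116 and 58.0 TPM and Gm14150 at 283 and 242 TPM, while Tuba1b had 1870 and 1722 TPM. The Cdh11 and Tuba1b groups were put together after values were seen, and the 8 neuronal markers were lower in the same library, and their part in these values was not tested.

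By TPM ratio, the 2 lowest pseudogenes carry no parent in their symbol. Gm5124, on chromosome X, had 872 and 126 reads, or 18.3 and 2.37 TPM, 7.73-fold lower (6.41 to 9.40), and none of its 50-base stretches was shared. Gm2792, which matches part of Tulp4, had 13.9 and 2.14 TPM, 6.52-fold lower (5.58 to 7.67), and Tulp4 had 30.9 and 11.6 TPM. Erdr1, at the end of chromosome X and annotated as a transcribed pseudogene, had 231 and 61.3 TPM, 3.78-fold lower.

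A parent was found by sequence for 466 of the 508 pseudogenes of both classes, over 255 parents, and by name for 151, and where both were given they were identical in 141 of 142. The TPM criterion was applied to the pseudogenes and not to the parents. Of the 508 pseudogenes, 104 reached 10 TPM in the E14-Sox2TA/WT library alone and 25 in the E14 library alone, which raises differences from the parent. The difference was not computed over pseudogenes with at least 10 TPM in both libraries. The pseudogene's log2 ratio minus that of its parent had a median of 0.32, was within 1 of 0 in 414 pairs, above 1 in 46 and below -1 in 6. Across these 466 pairs Pearson's r was 0.77 and Spearman's rho 0.66, values that describe genes of the same 2 libraries, in which many pairs share stretches of sequence. The median difference was 0.32 over 248 pairs with at least 80% of 50-base stretches shared and 0.22 over 62 pairs with under 50% shared. Over the 5 pairs with under 20% shared it was -0.06, with 2 above 0. By named parent, 9 of 11 families of at least 3 members had a median above the ratio of the parent. Only 17 of the 466 had a higher TPM than the parent in the E14 library.

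**Figure D4:**
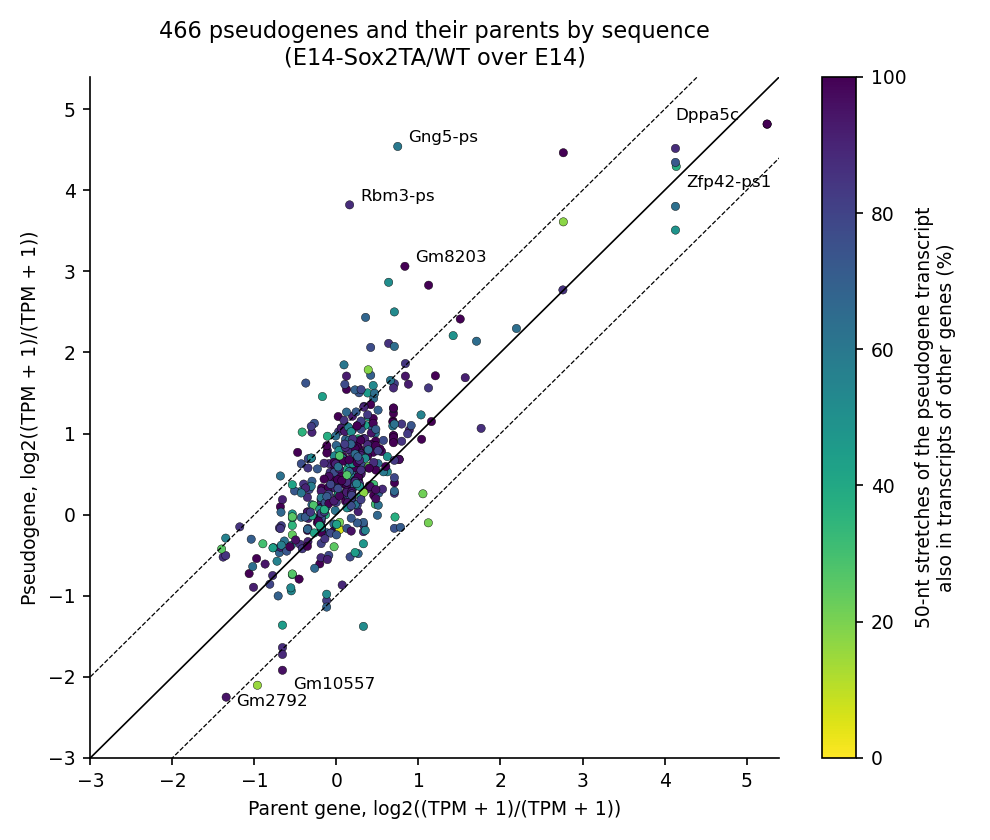
Log2 ratio (E14-Sox2TA/WT over E14, 1 added to each TPM) of 466 pseudogenes (y axis) against that of the parent gene found by sequence (x axis), coloured by the percentage of 50-base stretches shared with other genes. The solid line marks equal ratios and the dashed lines a difference of 1. Of the pairs, 414 lie between the dashed lines, and Gng5-ps, Rbm3-ps and Gm8203 lie above them.

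Higher snoRNA levels were spread over many hosts, and most snoRNAs had a higher ratio than the host. Of the 98 snoRNAs, 93 lay within 47 hosts on the same strand, 60 in protein-coding genes and 33 in 12 lncRNAs, and 36 lay in 23 ribosomal protein genes. Only 3 of the 47 hosts were more than 2-fold higher and 1 more than 2-fold lower. The TPM criterion was applied to the snoRNAs and not to the hosts. Of the 98 snoRNAs, 57 reached 10 TPM in the E14-Sox2TA/WT library alone and 4 in the E14 library alone, which raises differences from the host. Among the 37 with at least 10 TPM in both, 17 were higher and none lower, with a median of 0.95. The difference from the host was not computed over these 37 alone. The snoRNA's log2 ratio minus that of its host had a median of 1.07 and was above 0 in 82 of 93. It was 1.37 over the 26 snoRNAs in introns only, above 0 in 25. It was 0.89 over the 67 that overlap an exon of any annotated transcript of the host, which may be intronic in its other transcripts. Across the 93 pairs Pearson's r was 0.10 and Spearman's rho 0.13, a description over snoRNAs that share hosts and libraries. By box, 47 of 67 C/D snoRNAs were higher and 1 lower (median 1.503), and 21 of 29 H/ACA snoRNAs were higher and none lower (median 1.26). Stretches of 50 bases were shared for under 20% of the transcript in 91 of the 97 snoRNAs with a transcript.

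**Figure D5:**
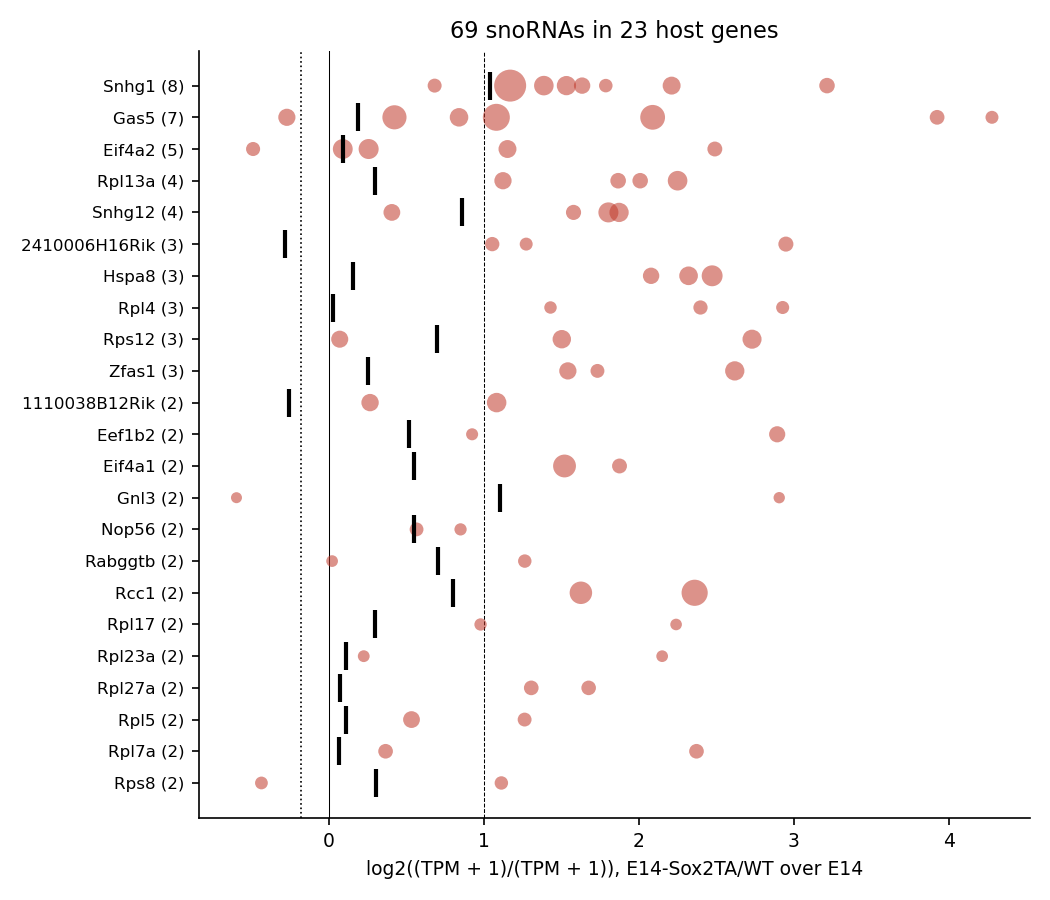
Log2 ratio (x axis, E14-Sox2TA/WT over E14, 1 added to each TPM) of 69 snoRNAs (red points, larger with more reads) in the 23 hosts that hold at least 2 of them (y axis, number in parentheses), with the host's own ratio as a black bar. The dotted line is the median of all genes at -0.18 and the dashed line 2-fold higher. The snoRNAs of Rpl13a, Hspa8 and Rpl4 lie at or above 1.12, right of hosts at 0.03 to 0.30.

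Gas5 and Snhg1 are lncRNAs that serve mainly as snoRNA hosts. Gas5 had 184 and 211 TPM, 1.14-fold higher, and 7 of the snoRNAs. The most abundant, LOC115487644, had 92 and 219 reads, or 63.6 and 136 TPM, 2.13-fold higher (1.66 to 2.75), and LOC115487677 had 43 and 208 reads, or 26.7 and 117 TPM, 4.38-fold higher (3.14 to 6.23). Snord47 of the same host had 1 and 41 reads, or 0.237 and 23.0 TPM, a TPM ratio of 97.2 with an interval of 16.5 to 3933. LOC115487643 had 50 and 46 reads, or 25.95 and 21.3 TPM, so loci of 1 host differed widely. Snhg1 had 178 and 366 TPM, 2.06-fold higher, and its 8 snoRNAs had log2 ratios of 0.68 to 3.22, with 7 above the host. Snord22, the most abundant of them, had 134 and 340 reads, or 44.0 and 100.2 TPM, 2.28-fold higher (1.86 to 2.80). Snord87 of Snhg6 had 1 and 41 reads, or 0.325 and 20.4 TPM, a TPM ratio of 62.8 with an interval of 10.7 to 2539.

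The protein-coding hosts Rpl13a, Hspa8 and Rcc1 had lower ratios than their snoRNAs. Rpl13a, a ribosomal protein gene, had 2802 and 3440 TPM, and Snord33, printed above, had 21 and 116 reads, or 10.2 and 52.5 TPM, 5.13-fold higher (3.20 to 8.59). The chaperone gene Hspa8 had 1898 and 2115 TPM, and its Snord14c, Snord14d and Snord14e had 14 and 70, 17 and 103, and 21 and 141 reads, which were 4.74-fold, 5.50-fold and 6.03-fold higher. Rcc1, a chromatin-bound exchange factor for Ran, had 50.6 and 88.7 TPM, and the H/ACA snoRNAs Snora73a and Snora73b in its introns had 42 and 154 and 40 and 248 reads, although both also overlap exons of other annotated transcripts. Where several genes spanned a snoRNA, a protein-coding gene was taken as the host. Any noncoding gene that spans these 2 snoRNAs was therefore not compared with them. AF357359, a snoRNA of the imprinted Rian locus, had 68.0 and 133 TPM, 1.96-fold higher (1.39 to 2.80), while Rian had 241 and 211 TPM. The lowest ratios were those of LOC115489207 of the SNORD113/114 family on chromosome X, at 10.7 and 5.09 TPM from 20 and 11 reads, and LOC115489589 of the SNORA71 family in Snhg17, at 15.2 and 8.07 TPM from 49 and 29 reads. The interval of the former, 0.958 to 4.85-fold lower, held 1.

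The proteins that make and bind small RNAs were looked at beside these loci. Of 13 genes listed, Nop58, a core protein of box C/D particles, had 95.6 and 211 TPM and Gar1, a core protein of box H/ACA particles, had 34.9 and 77.8 TPM, and these 2 were more than 2-fold higher. Fibrillarin (Fbl) had 165 and 267 TPM, dyskerin (Dkc1) 42.5 and 78.6 and the box C/D protein Snu13 236 and 411. Ago2, which binds miRNAs, had 18.9 and 8.88 TPM and was the only gene more than 2-fold lower. The miRNA-processing genes Drosha, Dgcr8 and Dicer1 had 70.7 and 78.4, 27.9 and 25.6, and 29.3 and 19.9 TPM.

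The miRNA loci moved both ways, with reads of 5 to 461 per library. Mir703 had 73 and 461 reads, or 27.3 and 157 TPM, 5.75-fold higher (4.49 to 7.47), although Eef1a1, whose transcript holds the bases of miR-703, was 1.45-fold lower. Mir3064 overlaps an exon of an annotated transcript of the RNA helicase gene Ddx5. It had 133 and 365 reads, or 81.1 and 202 TPM, 2.48-fold higher (2.03 to 3.05), and Ddx5 had 619 and 537 TPM. Mir5121, which shares bases with Snord33, had 13 and 53 reads, 4.05-fold higher (2.18 to 8.09). Mir684-1 had 5 and 59 reads, 15.02-fold higher (6.09 to 48.0), with 97.3% of its 50-base stretches shared, and Mir7-1 had 17 and 42 reads, 2.37-fold higher (1.32 to 4.44).

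The 4 lower loci of the class overlapped exons of annotated transcripts of protein-coding genes. Mir3061 in Ppp2ca, the gene of a phosphatase subunit, had 47 and 10 reads, or 20.3 and 3.03 TPM, 6.71-fold lower (3.35 to 14.9), while Ppp2ca had 340 and 319 TPM. Mir3960 and Mir2861 in the kinase gene Cdk9 had 21 and 5 and 23 and 8 reads, which were 6.28-fold and 3.37-fold lower, while Cdk9 had 60.4 and 69.3 TPM. Mir6970 in Skiv2l had 19 and 8 reads, 3.18-fold lower, and Skiv2l itself was lower, at 61.3 and 27.0 TPM. The 3 loci of miR-692 had 68.7 and 51.2, 32.2 and 17.1, and 25.3 and 20.6 TPM for Mir692-1, Mir692-2 and Mir692-3. Mir692-2 lies within Ftl2-ps and Mir692-3 within Ftl1-ps1, each over 109 bases, and those 2 pseudogenes were 1.09-fold and 1.16-fold lower. In 16 of the 19 loci with a mature sequence, that sequence stood in a transcript of another gene that is not a miRNA. Of the 5 miRNA loci with no biotype, Mir7652 in G3bp1 was lower, at 24.4 and 9.28 TPM from 28 and 16 reads, and the other 4, Mir6935 (23.2 and 22.9 TPM), Mir7036 (27.2 and 20.8), Mir7026 (7.25 and 10.1) and Mir7067 (10.3 and 8.13), had intervals that held 1.

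Mitochondrial tRNA and rRNA loci were higher in sum, and the mitochondrial messenger RNAs were as well. The mitochondrial genome is transcribed as long precursors from which tRNAs are cut out. Its 13 protein genes had summed TPM of 49909 and 92233, a ratio of 1.85. mt-Rnr1 and mt-Rnr2, the RNAs of the mitochondrial ribosome, had 306 and 596 TPM and 233 and 441 TPM, ratios of 1.95 and 1.89. TrnS1 had 686 and 3130 TPM from 1139 and 5803 reads, 4.56-fold higher (4.28 to 4.87), and its interval, chrM:6870-6938 on the minus strand, overlaps the end of COX1, which had 14218 and 20484 TPM. Of the other 10 tRNA members, 5 had a ratio above 1 and 5 below, their summed TPM was 552 and 498, and the interval held 1 in 5. TrnL1, between mt-Rnr2 and ND1, had 704 and 649 reads, or 390 and 322 TPM, TrnI had 9 and 41 reads, or 5.24 and 21.7 TPM, TrnM had 52.1 and 35.3 TPM, and TrnW had 24.3 and 16.7 TPM. Without TrnS1, the tRNAs were thus not higher in sum.

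The remaining classes held few genes. Dlx1as, the antisense RNA of the forebrain homeobox gene Dlx1, had the lowest ratio of all 649, with 3498 and 22 reads, or 52.0 and 0.284 TPM, 183-fold lower (121 to 293). Its interval overlaps a Dlx1 exon, Dlx1 had 72.0 and 0.969 TPM, the neighbouring Dlx2 had 67.0 and 1.24 TPM, and the neuronal markers were lower in the same library, and their part in it was not tested. Platr25, a transcript annotated as pluripotency associated, had 7.37 and 22.4 TPM, 3.04-fold higher (2.78 to 3.33), and the other misc_RNA genes, Gm9222 and Gm3255, had 8.46 and 15.5 and 17.01 and 20.4 TPM. Rn7s1 and Rn7s2, loci of the 7SL RNA of the signal recognition particle, had 27.8 and 11.4 and 27.8 and 11.3 TPM, which were 2.44-fold and 2.46-fold lower. Each of these 2 loci was wholly shared with other transcripts, so they count as 1 measurement. Rn7sk, the 7SK RNA that restrains transcription elongation, had 114 and 54 reads, or 14.2 and 6.03 TPM, 2.36-fold lower (1.69 to 3.33), and Rnu7, the U7 RNA of histone messenger RNA processing, had 9 and 21 reads with an interval, 0.974 to 5.50-fold higher, that held 1.

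Other noncoding classes stayed under the criterion. No immunoglobulin or T cell receptor gene segment among 659 reached 10 TPM, their summed TPM was 14.2 and 40.8, and the highest was Ighm at 8.06 and 8.78. RNase P RNA (Rpph1) reached at most 9.42 TPM, RNase MRP RNA (Rmrp) 6.81, and telomerase RNA (Terc) had 2 and 23 reads. Of 1331 snoRNA rows in the table, 1010 had no read in either library, and of the 321 with reads, 252 had more reads, scaled to the library totals, in the E14-Sox2TA/WT library and 69 did not. By chromosome, the median log2 ratio of the members was 0.40 on chromosome 8 (33 genes), 0.39 on 15 (15 genes), 0.69 on 13 (30 genes), 0.38 on X (36 genes) and 0.50 on the other autosomes (521 genes).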

How the data were processed

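Poly(A) RNA of 1 E14 and 1 E14-Sox2TA/WT teratoma library was sequenced on an Illumina NovaSeq. The submitters' processing notes name bcl2fastq 2.20.0, Trimmomatic, HISAT2 2.1.0 and StringTie 2.1.3b, with the builds mm10 and hg19, without saying what each was used for. The authors deposited read counts per gene as whole numbers with no normalization, FPKM, which divides by the length of the transcript and the size of the library, and TPM, which adds up to the same total in either library. The factor from FPKM to TPM was 2.33 for E14 and 2.03 for E14-Sox2TA/WT.

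From these, TPM ratios, log2 ratios with 1 added to each TPM, summed TPM and 95% Clopper-Pearson intervals of the read counts were computed, with no p-value, since there is 1 library per group. A gene was called higher or lower at a TPM ratio above 2, after the study's methods. Members, lists and families were chosen with earlier results of these data known. Genes named were all members of classes with 5 or fewer, in larger classes the 3 most abundant by TPM and the 2 at each end of the log2 ratios, the top member of each parent family of 3 or more, copies of pluripotency genes, structural RNAs, and their parents or hosts. All other genes named were picked out after their values were seen, and 1 gene that the rule names is not reported here.

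Parents came from symbol or description, or from GENCODE transcripts of GRCm38 by shared stretches of 25 bases (at least 25% of the pseudogene), and 630 of the 649 genes matched GENCODE, 549 by symbol and 81 by position. Shared stretches of 50 bases were counted against transcripts of all other genes. Read scaling by edgeR's TMM factors and by median-of-ratios size factors, FPKM, other TPM and fold limits and exclusions were alternatives. The scripts were tested on simulated data. Statistics were run with scipy 1.17.1 and pandas 2.3.3 under Python 3.11.15, TMM factors with edgeR 4.0.16 under R 4.3.3, and plots with matplotlib 3.10.9.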

Additional observations from a re-analysis of the deposited data

How the results depend on the processing

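The count by a TPM ratio above 2 was 198 genes higher and 29 lower. A limit of 5 TPM gave 277 higher and 57 lower of 899 genes, beside 13.2% and 18.8% of all genes at that limit. A limit of 20 TPM gave 126 and 16 of 436, beside 9.13% and 18.2%. With 10 TPM in both libraries the counts were 70 and 13 of 440, beside 5.34% and 12.5%. A ratio above 1.5 gave 311 and 54, beside 18.2% and 32.3% of all genes. A ratio above 3 gave 102 and 14, beside 5.73% and 8.77%. Requiring the whole counting interval of library-scaled reads, not rescaled to TPM, beyond 2-fold left 174 higher and 15 lower genes. Over all genes the same rule gave 11.5% and 12.5%. Keeping only the 146 genes with under 20% of 50-base stretches shared left 80 higher and 12 lower, with no matching share computed over all genes. Of these 146, 91 were snoRNAs and 20 were pseudogenes of both classes. Those 20 had 5 higher and 5 lower, with a median log2 ratio of -0.27. The median was 0.26 over 61 pseudogenes with 20% to 50% shared and 0.42 over 158 with 50% to 80%. It was 0.44 over 252 with at least 80%, and the part of sharing in these medians was not tested. FPKM gave 246 higher and 23 lower, beside 13.7% and 14.3% of all genes.

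The pseudogene median of 0.41 was 0.57 on FPKM, 0.62 on reads scaled by library total, 0.50 with TMM factors, 0.50 with median-of-ratios factors, 0.32 with 10 TPM in both libraries and 0.27 over the 8 with under 20% shared. The snoRNA median of 1.30 was 1.63 at 20 TPM and 0.95 with 10 TPM in both. The transcribed pseudogene median of 0.36 turned to -0.67 over the 12 with under 20% shared, and the cause was not tested. The named ribosomal family, at 0.65, was 0.83 on FPKM and 0.86 on library totals. The ratio of summed pseudogene TPM was 1.16 at 5 TPM, 1.15 at 20 TPM and 1.13 with 10 TPM in both, that of all members 1.25 at 20 TPM, 1.21 with 10 TPM in both and 1.19 without mitochondrial genes, and that of snoRNAs 2.73 and 2.06. The miRNA median of -0.15 ran from -0.16 to 0.74 and was above 0 on FPKM, on library totals, at 20 TPM, with 10 TPM in both and without genes overlapping another exon. The tRNA median of 0.12 ran from -0.08, with 10 TPM in both or without overlapping genes, to 0.55. Of 58 named members, 5 changed sign under at least 1 of 5 scalings.

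No paired analysis was possible because each group had 1 library. Depth limits the snoRNA, miRNA and tRNA loci, many with under 20 reads in a library, and differences between tumours were not measured.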
